A study of Rattus norvegicus with 32 samples.

Results

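Gene expression in the hippocampus of adult female rats that were iron deficient in early life and given choline (IDch) was compared with that of iron-sufficient females (IS). The comparison used 8 of the 32 libraries of the series, 4 IDch and 4 IS, chosen by their diet labels within the female sequencing batch, and it took in every gene of the count table. All animals were Sprague-Dawley rats killed at 65 days of age, and each library was made from the hippocampal RNA of 1 rat. The other 24 libraries were the female ID (iron deficient without choline) and ISch (iron sufficient with choline) groups and the same 4 groups of males.

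According to the study's methods, which were written for the males, dams ate an iron-deficient diet from early gestation to the end of the first postnatal week, the choline supplement was given during gestation only, and all offspring were on an iron-sufficient diet by the time of tissue collection. IDch animals were thus formerly iron deficient, and both the diet of the dam and the choline supplement differ between IDch and IS. The 2 factors cannot be told apart in this comparison alone. The study's methods describe a single male per litter in each experiment. The sample titles do not say whether females of a group were litter-mates. The female libraries were sequenced as a batch of their own and more deeply than the male ones, so sex, batch and depth cannot be told apart either. The libraries hold whole hippocampus, in which fewer cells of a type and less RNA per cell cannot be told apart.

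Iron is needed by the developing hippocampus for mitochondrial respiration, neurotransmitter synthesis and myelination. Cells take iron up as transferrin bound to the transferrin receptor, whose transcript is stabilised when cellular iron is low. Choline is a precursor of phosphatidylcholine and acetylcholine and, through betaine, a methyl donor. Dentate granule cells, the first relay of the hippocampal circuit, are known for their stores of dynorphin peptides and of BDNF.

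The 8 libraries held 19980501 to 26616318 counts with a median of 23177330, against 3515806 to 9517503 in the male libraries. A count of 0 in the shallowest of the 8 allows up to 0.15 CPM (read counts scaled by library size), counting error only. Hippocampal markers were present in every library, with 7 excitatory neuron markers summing to 5504 to 6417 CPM, while 8 thalamic markers summed to 88.0 to 108 CPM and 14 choroid plexus markers to 96.0 to 121 CPM. IDch replicate 4 stood apart from its group. Its counts differed from those of the other 3 IDch libraries by a chi-square of 22.4 to 25.2 per gene, against 5.35 to 6.87 among those 3 and 5.48 to 10.7 among the IS libraries. It also held 1231 CPM of 6 CA1 markers where the other IDch libraries held 553 to 764, 705 CPM of 9 CA2 and CA3 markers against 858 to 874, 9886 CPM of 13 mature oligodendrocyte markers against 7679 to 8195, and 317 CPM of blood markers against 97.7 to 128. The part of these differences in the results was not tested, and counts are given with and without that library.

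Compared to the IS group, IDch females had higher transcript levels of prodynorphin, desmoplakin, soluble epoxide hydrolase, Bdnf and the iron uptake genes Tfrc and Tf, and lower levels of fibulin-2, the mitochondrial import factor Chchd4 and the quinone reductase Nqo2. By edgeR's quasi-likelihood test, 133 of 14662 genes tested (0.907%) had a Benjamini-Hochberg adjusted p under 0.05, 71 of them higher and 62 lower in IDch. All 133 had values that did not overlap between the 2 groups, as did 7.78% of all genes tested. Of the 133, 57 were under 1.5-fold and 39 over 2-fold, with a median absolute log2 fold change of 0.69. At the study's own criterion of an unadjusted p under 0.05 with a log2 fold change beyond 0.2 in either direction, 1317 genes were called (8.98%), 610 higher (4.16%) and 707 lower (4.82%).

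The number at adjusted p under 0.05 moved widely when any 1 library was left out. It was 319 without IDch replicate 4, and 132 of the 133 genes were among them. That fit tested 14821 genes, of which 2.15% had an adjusted p under 0.05, 4.4% were higher at the criterion and 5.61% lower, and list counts without that library are read beside these shares. It fell to 57, 62 and 109 without IDch replicates 1, 2 and 3, and to 40, 30, 67 and 28 without IS replicates 1, 2, 3 and 4. The direction of all 133 genes was kept in each of those 8 fits, and 24 genes passed in all 8. Among these 24 were 21 with a gene symbol: Bphl, Cd59, Chchd4, Crabp1, Ddit3, Dsp, Ephx2, Fbln2, Ift140, Nqo2, Pdyn, Pld5, Pxmp4, RT1-A2, Rnd3, Rpl30, Snrpc, Sppl2a, Tfap2c, Tnc and Vps52. The criterion count moved less, from 1108 without IS replicate 4 to 1528 without IDch replicate 3.

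**Figure D1:**
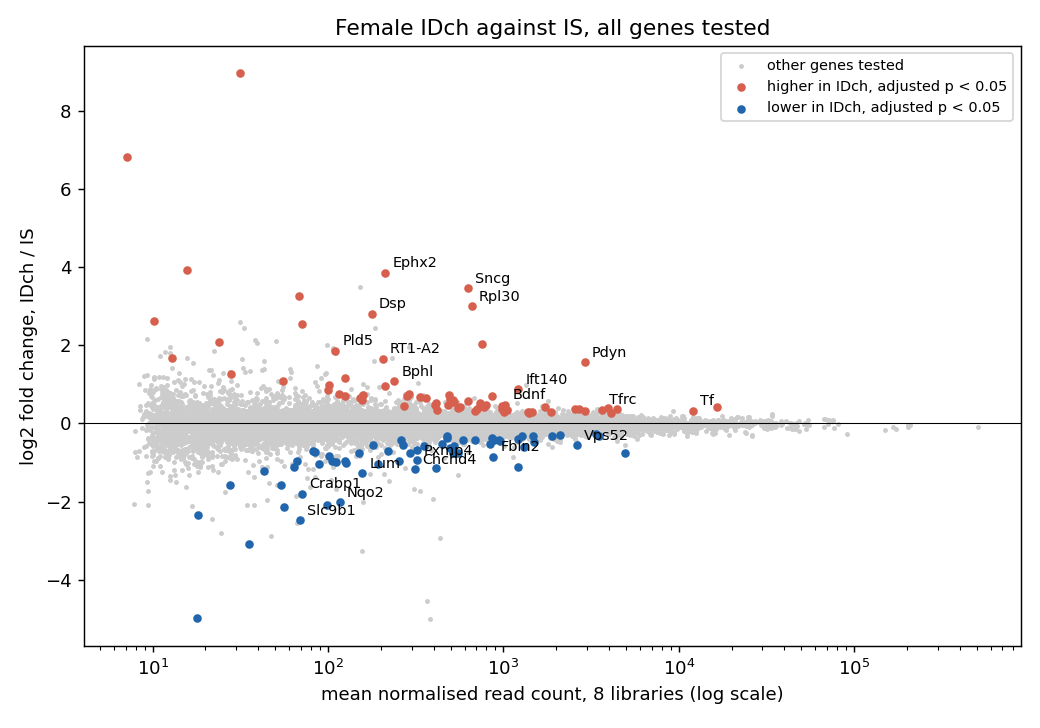
Each point is 1 of the 14662 genes tested, placed by its mean normalised read count over the 8 libraries (log axis) and its log2 fold change between female IDch and IS. The 71 genes higher and 62 lower in IDch at adjusted p under 0.05 are coloured, and the named ones range from Ephx2 at 3.86 to Slc9b1 at -2.47.

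Pdyn, which encodes the precursor of the dynorphin opioid peptides, was the most abundant of the strongly changed genes. The IDch libraries held 4688, 3665, 5435 and 3581 normalised read counts of Pdyn, against 1123, 1409, 1698 and 1643 in the IS libraries. Every IDch library was above every IS library. The log2 fold change was 1.56 (SE 0.16, 2.95-fold, adjusted p = 0.00133), and adjusted p stayed between 0.000315 and 0.00961 when any 1 of the 8 libraries was left out.

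Dsp encodes desmoplakin, a plaque protein of desmosomes that marks dentate granule cells in the rodent hippocampus. Its level was 237, 258, 380 and 368 normalised read counts in IDch and 52.3, 47.3, 39.4 and 37.6 in IS. The groups were far apart, with a log2 fold change of 2.81 (SE 0.19, 7.02-fold, adjusted p = 0.00011). Stxbp6, a binding partner of the SNARE proteins, was higher by 0.30 (SE 0.05, adjusted p = 0.0261), a call that was lost without any 1 of 6 libraries (IDch replicate 1 or 2 or any IS replicate) at an adjusted p of up to 0.118.

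Both genes belong to a list of dentate gyrus markers, of which 5 of 7 tested members were higher in IDch at the criterion and none lower. Prox1, the granule cell transcription factor, differed by 0.30 (SE 0.07, adjusted p = 0.0696), and the synaptic protein gene C1ql2 by 0.40 (SE 0.10, adjusted p = 0.14). The summed level of the 9 markers ran from 408 to 448 CPM in IDch and from 330 to 377 CPM in IS. In the other female groups it ran from 438 to 491 CPM in ISch and from 337 to 353 CPM in ID. Without Dsp and Stxbp6, and with normalised library sizes, the sum was 351 to 389 CPM in IDch against 293 to 336 CPM in IS. The median log2 fold change of the 7 members was 0.30, beside 0.00 over all genes, and 4 of them were at the criterion without IDch replicate 4. For the CA1 markers all 5 tested members were lower in IDch without reaching the criterion (median -0.21), while without IDch replicate 4 it was reached by 5 of 6, all lower (median -0.45).

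Of 18 neuropeptide precursor genes tested, 6 were higher in IDch at the criterion and none lower, with a median log2 fold change of 0.18. Besides Pdyn these were Nmb, encoding neuromedin B (0.57, adjusted p = 0.0803), Scg2, encoding secretogranin II (0.33, adjusted p = 0.0857), Crh, encoding corticotropin-releasing hormone (0.82, adjusted p = 0.191), Grp, encoding gastrin-releasing peptide (0.95, adjusted p = 0.199), and Penk, encoding the enkephalin precursor (0.37, adjusted p = 0.264). Pdyn was the 1 member with an adjusted p under 0.05 in the fit of 8 libraries. Without IDch replicate 4, 6 were higher and 1 lower at the criterion, and 3 higher and 1 lower had an adjusted p under 0.05.

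Bdnf, the activity-regulated neurotrophin, measured 1207, 1288, 1027 and 1231 normalised read counts in IDch against 792, 859, 877 and 880 in IS. The IDch libraries were all higher, by a log2 fold change of 0.48 (SE 0.07, 1.39-fold, adjusted p = 0.0177). That call was lost in 5 of the 8 fits with a library left out (IDch replicate 1 or 2, IS replicate 1, 2 or 4), where adjusted p rose to at most 0.0692. Ntf3, a second neurotrophin, differed by 0.39 (adjusted p = 0.151) and Sort1, the pro-neurotrophin receptor sortilin, by -0.32 (adjusted p = 0.0904). The receptor genes Ntrk2 (-0.04) and Ntrk3 (-0.05) were close to 0.

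The counts cannot separate the several Bdnf promoters. RefSeq (assembly GRCr8) gives 6 promoter windows for Bdnf, and 1 of them holds TCACGTCA, a variant of the cyclic AMP response element through which neuronal activity is known to drive Bdnf, starting 38 bases before the start. The window is shown because it carries the textbook activity element of this gene. The 250 bases before that start lie at chr3:116637608-116637857 on the plus strand, with the motif in capitals.
Bdnf: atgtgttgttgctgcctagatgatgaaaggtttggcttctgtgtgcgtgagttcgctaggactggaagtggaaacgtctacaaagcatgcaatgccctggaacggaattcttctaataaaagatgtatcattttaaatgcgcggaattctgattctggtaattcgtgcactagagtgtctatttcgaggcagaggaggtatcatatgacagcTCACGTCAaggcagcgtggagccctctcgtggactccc
Over 33469 RefSeq windows, 0.35% held TCACGTCA and 1.59% the full element TGACGTCA on either strand in the 250 bases before the start. Neither was found in the windows of Pdyn or Ptgs2.

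Ptgs2, which encodes the inducible cyclooxygenase COX-2, measured 1538, 1672, 1422 and 1472 normalised read counts in IDch and 1272, 1255, 1198 and 1222 in IS (log2 fold change 0.30, SE 0.06, adjusted p = 0.0385). Its groups did not overlap, but adjusted p rose to up to 0.137 without any 1 of 6 libraries (IDch replicate 1 or 2, or any IS replicate). The immediate early genes as a list did not share its direction: 3 of 27 were higher and 2 lower at the criterion, and the median was -0.03. Without IDch replicate 4, 3 were higher and 8 lower (median -0.17). Fos (-0.08), Arc (-0.03) and Egr1 (-0.05), the classical markers of recent activity, were near 0.

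Tfrc and Tf, genes of iron uptake, were higher in IDch long after the iron-deficient diet had ended. Tfrc, the transferrin receptor, measured 4466, 3904, 4125 and 3751 normalised read counts in IDch and 3447, 3222, 3040 and 3048 in IS, with no overlap (log2 fold change 0.35, SE 0.06, 1.27-fold, adjusted p = 0.0348). Tf, encoding transferrin, which in brain is made mostly by oligodendrocytes, measured 13019, 13969, 12651 and 13632 against 10877, 9778, 11806 and 10096 (0.32, SE 0.06, adjusted p = 0.0445). Its groups were again separate. Of 13 mature oligodendrocyte markers, 11 had a positive log2 fold change (median 0.02), and at the criterion 2 were higher, Ugt8 (0.22, adjusted p = 0.147) and Aspa (0.28, adjusted p = 0.298), and none lower, with or without IDch replicate 4. Their sum ran from 7679 to 9886 CPM in IDch and from 7049 to 8671 CPM in IS, and their part in the result for Tf was not tested.

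Both iron calls were lost in most fits with 1 library left out. Over all alternative fits the log2 fold change stayed at 0.3 to 0.387 for Tfrc and 0.285 to 0.377 for Tf. For Tfrc adjusted p was 0.01 without IDch replicate 4 and over 0.05 without any other 1 of the 8, at up to 0.126. For Tf it was over 0.05 in 6 of the 8 fits (all but those without IDch replicate 4 or IS replicate 3), at up to 0.152. Of the 25 genes tested for iron uptake, storage and export, 3 were higher at the criterion and none lower, the third being the ferric reductase Cybrd1 (0.62, adjusted p = 0.284), and the median was 0.08. When IDch replicate 4 was left out, 4 were higher and 1 lower. Ferritin heavy chain Fth1 (0.09), ferroportin Slc40a1 (-0.20, adjusted p = 0.713) and Ireb2, which encodes the iron regulatory protein that binds the Tfrc transcript (0.00), did not pass.

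The RefSeq promoter window of Tfrc holds 1 copy of ACGTG, the core of the hypoxia response element, which 16.6% of all windows hold on either strand. It is shown as the sequence before the start of an iron uptake gene that was higher in IDch, at chr11:81690319-81690568 (GRCr8, minus strand), read 5′ to 3′ with the motif in capitals; the motif also lies inside the Bdnf element above on the other strand.
Tfrc: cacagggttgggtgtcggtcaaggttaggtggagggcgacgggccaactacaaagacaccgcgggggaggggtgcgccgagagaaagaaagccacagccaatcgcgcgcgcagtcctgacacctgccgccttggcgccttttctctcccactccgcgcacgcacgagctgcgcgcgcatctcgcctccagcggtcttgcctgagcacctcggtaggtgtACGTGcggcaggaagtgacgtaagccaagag
The window of Tf held none of the 3 motifs. Of the 22 hypoxia factors and targets tested, 2 were higher and 3 lower at the criterion (2 each way without IDch replicate 4; median of all 8 libraries -0.02), and the 1 that passed the adjusted threshold was Ndrg1, a stress-responsive gene of oligodendrocytes that iron chelation is known to induce. Ndrg1 measured 3135, 3167, 3099 and 2717 normalised read counts in IDch and 2385, 2285, 2482 and 2188 in IS (0.38, SE 0.06, adjusted p = 0.0224), and lost its call without IDch replicate 1 or 2 or IS replicate 1, 2 or 4 at up to 0.0875.

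**Figure D2:**
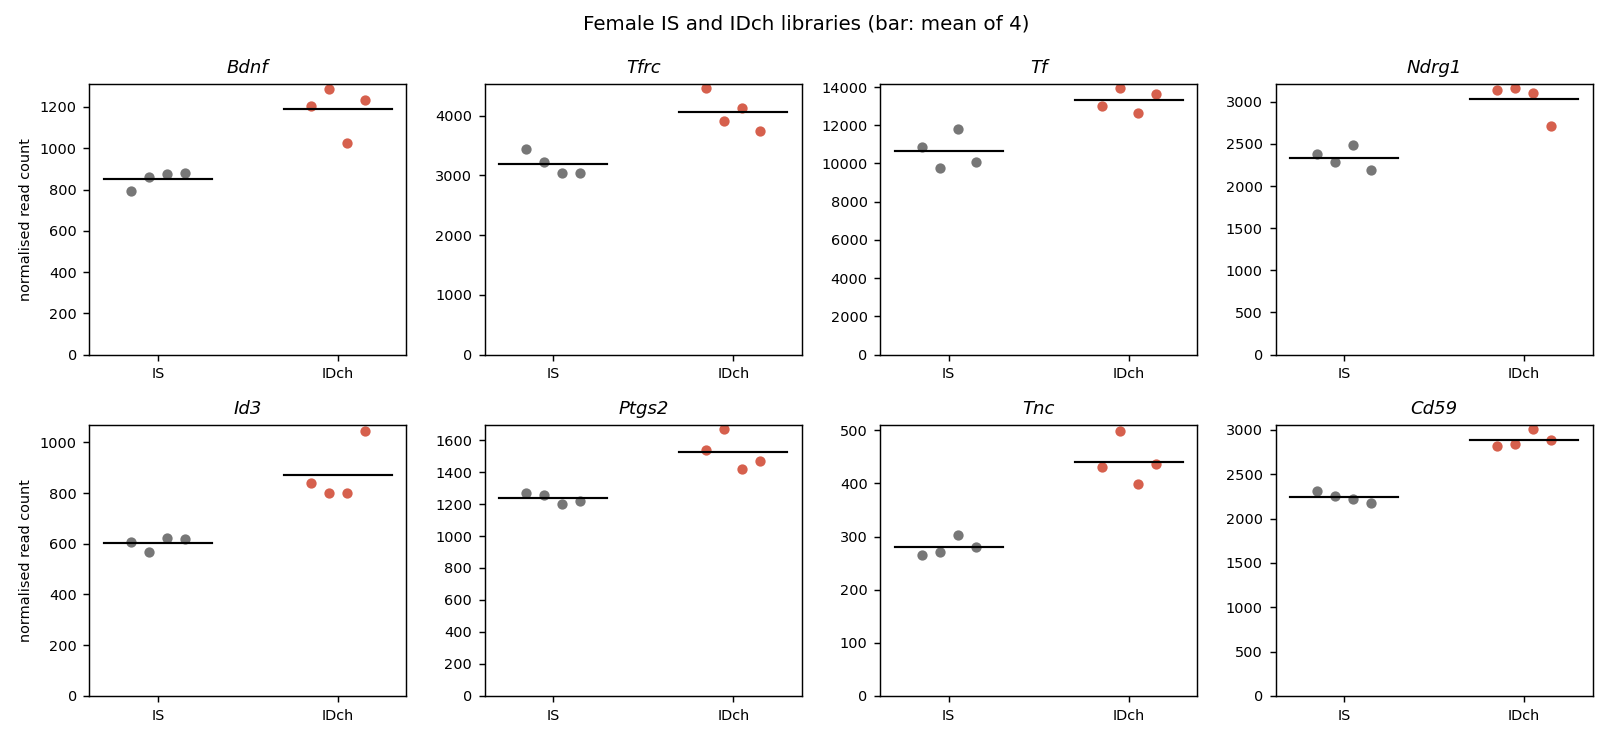
Normalised read counts (axis from 0) of 8 genes in each of the 4 female IS and 4 IDch libraries, with bars for the means. The 8 genes were picked from the 133 with adjusted p under 0.05, none of which overlapped between the groups, as did 7.78% of all genes tested not. In all 8 panels every IDch library thus lies above every IS library, as for Bdnf, where IDch ran from 1027 to 1288 and IS from 792 to 880.

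Id3, an inhibitor of differentiation that BMP signalling induces, measured 838, 799, 799 and 1045 normalised read counts in IDch against 606, 567, 624 and 617 in IS. The groups did not overlap (0.53, SE 0.09, 1.44-fold, adjusted p = 0.024), and the call was lost without IDch replicate 1 or any IS replicate, at up to 0.115. Across BMP signalling 4 of 24 genes were higher and 1 lower at the criterion, but 2 higher and 1 lower without IDch replicate 4. In the fit of 8 libraries these were Id3 itself, Bmp7 at 0.73 (adjusted p = 0.186), Id4 at 0.26 (adjusted p = 0.218), and the BMP antagonists Grem1 at 0.24 (adjusted p = 0.335) and Chrd at -0.23 (adjusted p = 0.249). Bmp3 itself spanned 555 to 907 in IDch and 477 to 888 in IS (0.04, SE 0.19, adjusted p = 0.949). Tnks (-0.24, SE 0.13, adjusted p = 0.482) and App (-0.01, SE 0.04, adjusted p = 0.913) did not pass either.

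Of 27 extracellular matrix genes tested, 20 had a negative log2 fold change, 7 were lower and 2 higher at the criterion, and the median was -0.18 (3 higher and 7 lower without IDch replicate 4). Fbln2, which encodes the matrix glycoprotein fibulin-2 but was not on that list, measured 602, 597, 578 and 707 normalised read counts in IDch and 1186, 1113, 1105 and 1086 in IS. Both groups were tight and separate, and Fbln2 fell by 0.86 on the log2 scale (SE 0.07, adjusted p = 0.000317). Lum, the small proteoglycan lumican and a member of the list, fell by 1.27 (101, 95.6, 118 and 50.2 against 264, 213, 241 and 168; SE 0.23, adjusted p = 0.0321), a call kept in 2 of 8 fits (those without IDch replicates 3 and 4) and otherwise at up to 0.101.

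Among the collagens, Col4a1 and Col4a2 of the vascular basement membrane differed by -0.25 (adjusted p = 0.277) and -0.37 (adjusted p = 0.2), Col5a1 by -0.70 (adjusted p = 0.156) and the neuronal collagen Col25a1 by -0.36 (adjusted p = 0.161). Fibronectin, Fn1, differed by -0.35 (adjusted p = 0.103). Tnc, encoding the matrix glycoprotein tenascin-C, went the other way with 431, 498, 399 and 436 normalised read counts in IDch against 265, 270, 303 and 280 in IS. It was higher by 0.66 (SE 0.09, adjusted p = 0.00837) and passed in all 8 fits with a library left out. Ccn1, a secreted matrix-associated factor also outside the list, was lower (25.9, 21.2, 63.7 and 41.4 against 90.4, 164, 272 and 115; -2.09, SE 0.40, adjusted p = 0.0412) and was lost without IDch replicate 1 or 2 or any IS replicate, at up to 0.125. Markers of endothelial and mural cells summed to 298 to 341 CPM in IDch and 329 to 360 in IS, and 2 of 12 were lower at the criterion, or 1 without IDch replicate 4.

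Of 12 microglial markers tested, 11 had a negative log2 fold change (median -0.18), 2 were lower at the criterion and none had an adjusted p under 0.05. Without IDch replicate 4, 4 were lower at the criterion and 1, Ctss, had an adjusted p of 0.0438. In the fit of 8 libraries Ctss, the lysosomal protease cathepsin S, differed by -0.26 (SE 0.06, adjusted p = 0.0625) and the fractalkine receptor Cx3cr1 by -0.28 (SE 0.08, adjusted p = 0.19). The summed markers ran from 426 to 466 CPM in IDch and from 498 to 518 CPM in IS, without overlap. Tmem119 (0.00), C1qb (-0.01) and Aif1 (-0.03), which also define microglia, lay near 0.

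Of 31 interferon response and antigen presentation genes tested, 9 were higher and 2 lower at the criterion (6 and 2 of 33 without IDch replicate 4). RT1-A2, a rat class I MHC gene, measured 239, 280, 302 and 423 normalised read counts in IDch and 97.6, 84.6, 117 and 95 in IS. It was higher by 1.66 (SE 0.18, 3.15-fold, adjusted p = 0.00212) in groups that did not overlap. The rat MHC genes are near-identical and vary between animals, and how reads matching several of them were counted is not given in the sources used here, so its level is uncertain. The interferon-induced genes Isg15 (1.34, adjusted p = 0.175), Bst2 (0.78, adjusted p = 0.128) and Oas1a (0.99, adjusted p = 0.276) did not pass, nor did the class II gene RT1-Bb (-2.10, adjusted p = 0.103). Cd59, which shields cells from complement lysis, was higher in all 4 IDch libraries (2822, 2838, 3014 and 2884 against 2308, 2259, 2225 and 2172; 0.37, SE 0.04, adjusted p = 0.00473).

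Of 22 heat shock protein and chaperone genes tested, 20 had a positive log2 fold change (median 0.14) but 1, Cryab, was at the criterion (0.39, adjusted p = 0.253). The constitutive chaperone Hspa8 differed by 0.16 (adjusted p = 0.319) and the endoplasmic reticulum chaperone Hsp90b1 by 0.18 (adjusted p = 0.32). Without IDch replicate 4 the median was 0.15 and 4 were at the criterion.

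Respiratory chain complexes carry iron as heme and iron-sulfur clusters. None of 45 nuclear-encoded subunits was at the criterion (log2 fold changes from -0.03 to 0.20, median 0.04), but 41 had a positive log2 fold change. Of the 13 mitochondrially encoded genes, 12 had a negative log2 fold change (median -0.08). At the criterion 2 were lower, Mt-nd4l (-0.32, adjusted p = 0.195) and Mt-nd5 (-0.26, adjusted p = 0.216), and 5 without IDch replicate 4. Choline transport and phosphatidylcholine synthesis had 2 of 23 genes higher and none lower at the criterion, among them Chka, the first enzyme of that pathway (0.26, adjusted p = 0.142). With IDch replicate 4 left out, 4 were higher, 1 of them at adjusted p under 0.05. The methionine and folate cycle had 1 of 26 higher and 1 lower (2 lower without that library), and DNA methylation 1 of 19 higher in both fits.

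Lists of synaptic genes differed in their share of calls. Metabotropic glutamate receptors had 1 of 7 higher and 2 lower at the criterion. The lower ones were Grm4 (-0.56, adjusted p = 0.0507) and Grm8 (-0.83, adjusted p = 0.134). Without IDch replicate 4 their adjusted p was 0.0442 and 0.0238. AMPA, NMDA and kainate receptor subunits had 1 of 21 lower at the criterion, Grin2a (-0.46, adjusted p = 0.375), and none without IDch replicate 4, which held 2276 normalised read counts of it against 4093 to 4387 in the other IDch libraries. Potassium channel subunits had 1 of 43 higher and 4 lower, or 2 and 5 without it, and synaptic vesicle release 1 of 30 each way, or 1 lower without it. Ddit4l, an inhibitor of mTOR signalling, was higher (175, 249, 160 and 204 against 118, 125, 114 and 122; 0.72, SE 0.14, adjusted p = 0.0452), a call lost without IDch replicate 1 or 2 or any IS replicate, at up to 0.141. Enpp6, an oligodendrocyte enzyme that cleaves glycerophosphocholine, was lower (150, 147, 150 and 142 against 218, 218, 206 and 222). It fell by 0.55 on the log2 scale (SE 0.08, adjusted p = 0.0177), and the call was lost without IS replicate 1, 2 or 4, at up to 0.074.

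Heme and iron-sulfur cluster synthesis had 2 of 29 genes higher and 1 lower at the criterion, the mTOR pathway 1 of 27 higher and 2 lower, stress hormone receptors and glucocorticoid targets 2 of 19 each way, and sex steroid receptors and synthesis 3 of 15 higher and 2 lower. The circadian clock had 2 of 21 higher and 1 lower, GABA-A receptor subunits 1 of 14 higher, metabotropic glutamate receptors 1 of 7 higher and 2 lower, and amyloid precursor processing, tau and synuclein none of 21. Among markers of other cells, astrocytes had 1 of 11 each way, oligodendrocyte precursors 2 of 9 lower, meninges and fibroblasts 2 of 9 higher and 1 lower, and choroid plexus 2 of 7 lower, with Ttr, its defining transcript, at -1.05 (SE 0.27, adjusted p = 0.14). No member of the interneuron, ependymal or blood lists was at the criterion. Without IDch replicate 4 the counts higher and lower were 2 and 2 for the mTOR pathway, 2 and 3 for the stress list, 2 and 1 of 16 for the sex steroid list, 2 and 2 for the clock, 2 and 1 for astrocytes, 1 and 1 for meninges and 1 and 2 for interneurons, with 1 amyloid list gene higher and 1 oligodendrocyte precursor marker lower, and those of the other lists of this paragraph stayed as they were.

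**Figure D3:**
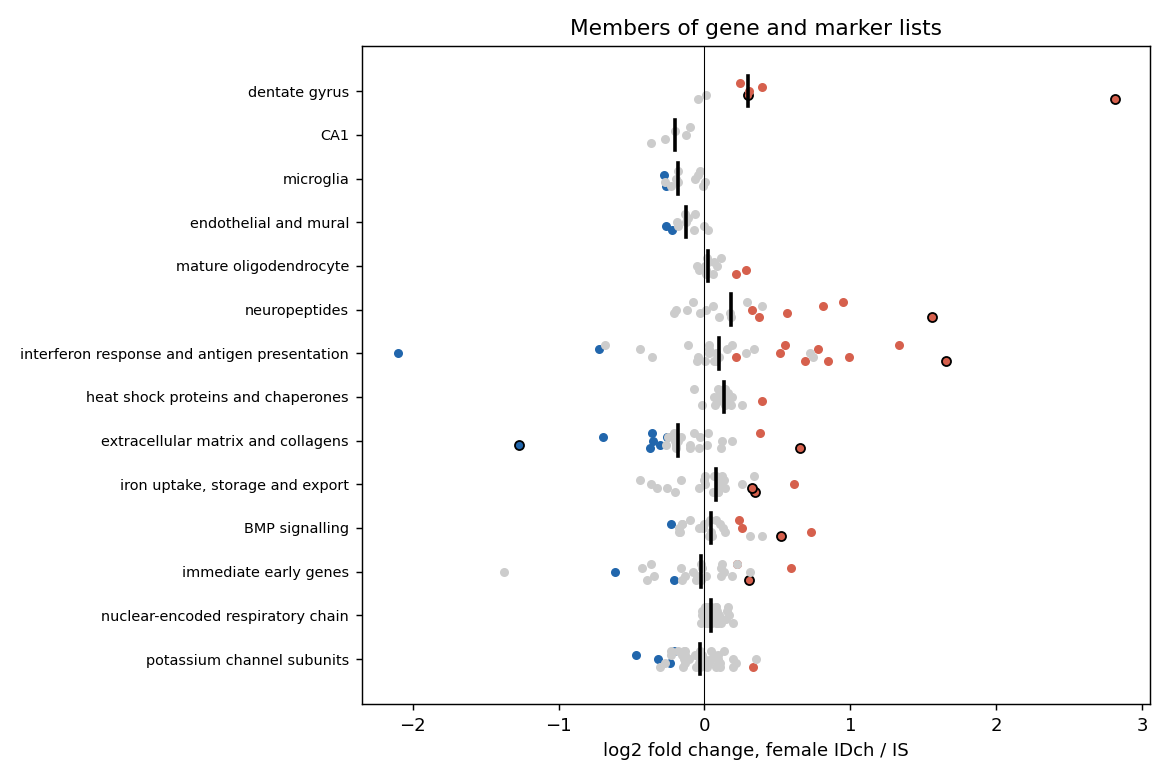
Each point is the log2 fold change between female IDch and IS of 1 tested member of a gene or marker list, coloured where it met the criterion and ringed where adjusted p was under 0.05. Black bars are medians, which in the lists drawn run from 0.30 for the dentate gyrus markers to -0.21 for the CA1 markers; the choroid plexus markers, at -0.34, are not drawn.

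The largest fold changes were in genes of diverse function. Ephx2, which encodes soluble epoxide hydrolase, an enzyme that degrades signalling epoxides of fatty acids, measured 431, 476, 178 and 501 normalised read counts in IDch and 22.6, 32.8, 29 and 23.7 in IS. It was higher by 3.86 (SE 0.33, 14.5-fold, adjusted p = 0.000433), and IDch replicate 3 was the lowest of its group. Pld5, of the phospholipase D family, was higher by 1.87 (215, 139, 122 and 215 against 35.7, 59.2, 44.6 and 48.5; adjusted p = 0.00526). Sncg, encoding gamma-synuclein, was uneven, with 936, 1672, 1836 and 161 in IDch against 82.1, 121, 134 and 80.1 in IS (3.46, SE 0.60, adjusted p = 0.0286). Adjusted p for Sncg was 2.29e-05 without IDch replicate 4, its lowest IDch library, and over 0.05 without any other 1 of the 8, at up to 0.113.

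Otop3, a proton channel gene, ranged from 28.2 to 248 in IDch and from 11.4 to 15.5 in IS (3.25, adjusted p = 0.0275) and was lost without IDch replicate 2 or any IS replicate, at up to 0.117. Bphl, a serine hydrolase gene, measured 349, 316, 284 and 351 against 148, 150, 175 and 139 (1.09, SE 0.11, adjusted p = 0.00122). Ift140, a subunit of the ciliary transport complex, measured 1587, 1578, 1666 and 1438 against 835, 810, 916 and 858 (0.87, SE 0.06, adjusted p = 0.00011). It overlaps Tmem204, which was lower by 0.69, and whether the counting used strand is not given in the sources used here. Clustered protocadherin Pcdhga1 shares exons with its neighbours and is uncertain for the same reason (78.5 to 175 in IDch, 11.9 to 32.6 in IS; 2.55, adjusted p = 0.0132, but 0.0623 without IS replicate 2).

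Rpl30, a ribosomal protein gene with many near-identical copies, gave the smallest p. It measured 1234, 1297, 1281 and 886 normalised read counts in IDch against 174, 133, 137 and 146 in IS. The groups were about 8-fold apart (log2 fold change 3.0, SE 0.14, adjusted p = 4.44e-06), and reads shared with its copies cannot be separated in the counts. LOC100361898 had no count in any IS library and 38 to 92 counts in each IDch library, at least 17.9-fold higher against a floor of 3 counts in the shallowest IS library. Defb17, a defensin gene, likewise had none in IS and 12 to 17 counts in IDch, at least 4.07-fold higher.

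Among the lower genes, Chchd4, which drives protein import into the mitochondrial intermembrane space, measured 186, 174, 212 and 194 normalised read counts in IDch and 388, 453, 490 and 399 in IS. It fell by 1.18 on the log2 scale (SE 0.10, adjusted p = 0.000484). Pxmp4, a peroxisomal membrane protein gene, was as tight, at 214, 227, 218 and 219 against 426, 395, 452 and 416 (-0.94, SE 0.07, adjusted p = 0.000317). Nqo2, a quinone reductase gene, measured 34.2, 49.6, 67.9 and 33.8 against 162, 222, 189 and 175 (-2.01, SE 0.21, adjusted p = 0.00212). It overlaps Serpinb6a, which was lower by 0.37, so part of either value may be shared reads. Crabp1, a retinoic acid binding protein gene, measured 45.3, 29.2, 23 and 29.4 against 75, 122, 119 and 127 (-1.80, SE 0.24, adjusted p = 0.00837).

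Vps52, a subunit of an endosome-to-Golgi tethering complex, was lower by a smaller margin at a high level, with 1918 to 2376 in IDch and 2841 to 3286 in IS (-0.56, SE 0.07, adjusted p = 0.00746). Ccdc82 ran from 416 to 430 in IDch and from 524 to 670 in IS (-0.57, SE 0.08, adjusted p = 0.0138, but up to 0.0623 without IS replicate 1 or 2). The low-count genes Slc9b1, a sodium and proton exchanger (6.47 to 52.2 against 102 to 124; -2.47), and Lrrc31 (12 to 33.4 against 66.4 to 142; -2.15) lost their calls without IDch replicate 1 or 2 and without IS replicate 4, and Slc9b1 also without any other IS replicate, at adjusted p of up to 0.124 and 0.065. The pseudogene Ybx1-ps3 (20.3 to 33.4 against 57.4 to 103; -1.57) was at 0.0597 without IS replicate 2. Slc9b1 overlaps Cisd2, Ccdc82 overlaps Maml2 and Ybx1-ps3 overlaps Fam47e, so these values too may hold reads of a neighbour.

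Several of the changed genes lay near each other on a chromosome. Of the 109 genes at adjusted p under 0.05 that could be placed by symbol in the RefSeq annotation, 21 (19.3%) had another such gene among the 5 nearest tested genes on either side, against 7.5% of the other genes. Several such runs held both directions: Bphl (1.09) lay near Serpinb6a (-0.37) and Nqo2 (-2.01), RT1-A2 (1.66) near Vps52 (-0.56), and Ift140 (0.87) near Tmem204 (-0.69) and Clcn7 (-0.32). Fbln2 (-0.86) and Chchd4 (-1.18) lay within a span of 3 tested genes and were both lower. These shares are a description, since neighbouring genes are not independent and some of them overlap.

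To see which groups shared the high and low levels, the 4 female groups were placed on one scale. Dsp stood at 222 to 357 normalised read counts in IDch and 264 to 402 in ISch, against 30.3 to 41.0 in ID and 35.3 to 49.2 in IS. Pdyn was likewise at 3363 to 5103 in IDch and 3506 to 4935 in ISch, and at 1206 to 1498 in ID and 1055 to 1595 in IS. Ephx2 ran from 167 to 470 and from 190 to 373 in the IDch and ISch groups, and from 21.5 to 31.5 and from 21.2 to 30.8 in ID and IS. In these 3 genes both choline groups lay above both groups without choline. Bphl, Ift140, Pld5 and Cd59 had the same order, and Fbln2 and Nqo2 the reverse. Fbln2 was at 542.5 to 664 in IDch and 526 to 793 in ISch. In ID it was at 900 to 1027 and in IS at 1020 to 1114. Nqo2 was at 31.8 to 63.8 in IDch and 45.7 to 75.8 in ISch. In ID it was at 128 to 160 and in IS at 152 to 208.5.

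Not all changed genes were split by choline in this way. Rpl30 was at 125 to 163 in all 4 IS libraries but at 139, 582, 646 and 669 in ID and at 146, 601, 1146 and 1234 in ISch, so that libraries of 1 group fell into separate levels. RT1-A2 was at 87.7 in 1 ISch library and at 345 to 371 in the other 3. Chchd4 spread from 193 to 411 in ISch, reaching into both the 163 to 199 of IDch and the 364 to 461 of IS. Crabp1 was at 21.6 to 42.5 in IDch and at 49.3 to 118 in ISch, 70.6 to 125 in ID and 70.4 to 119 in IS.

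**Figure D4:**
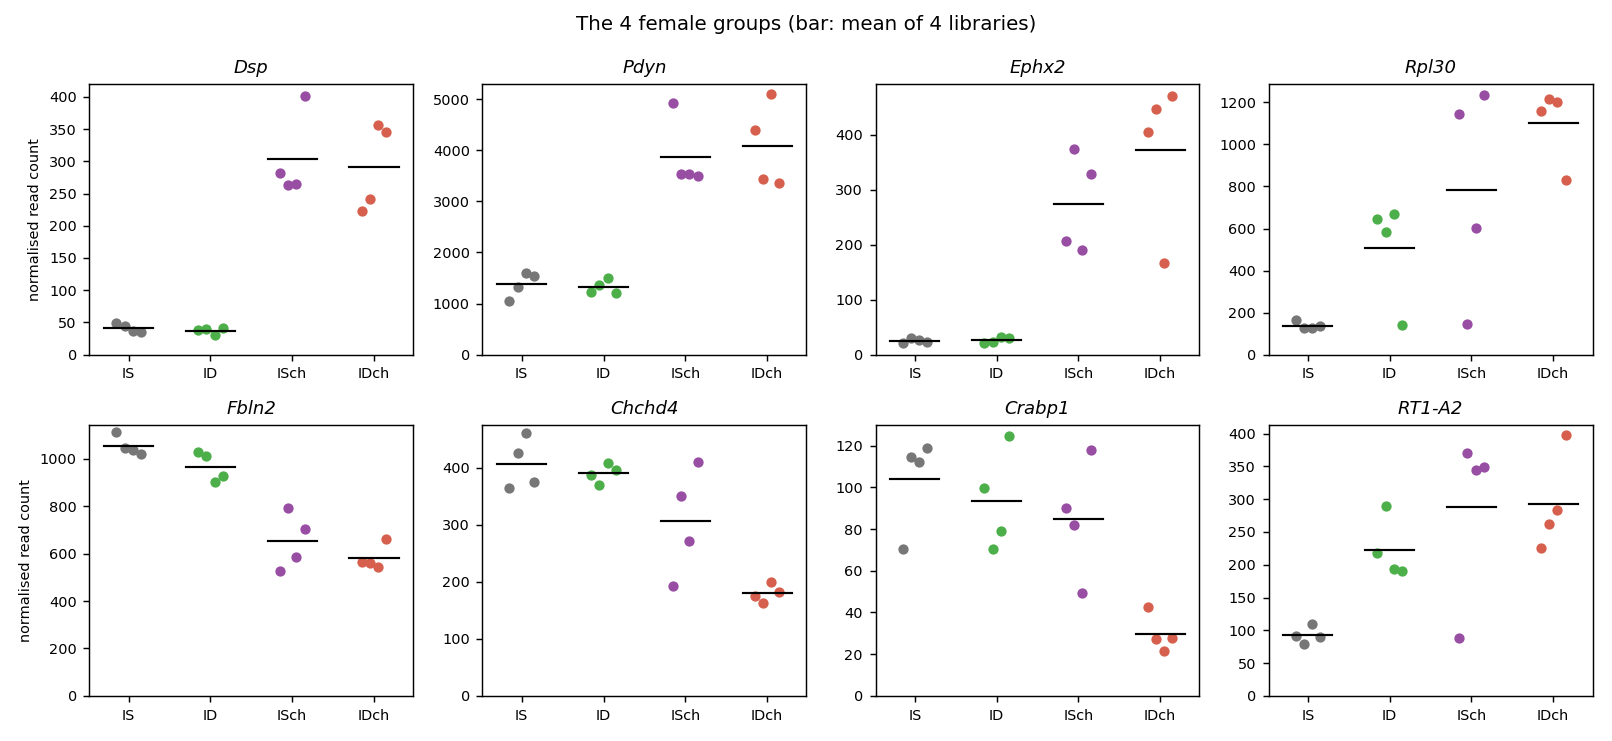
Normalised read counts (axis from 0) of 8 genes in the 16 female libraries on one scale, 4 per group, with bars for the group means. Dsp, Pdyn and Ephx2 are high in both choline groups, while for Rpl30 the ID and ISch libraries are spread between 139 and 1234.

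The difference between IDch and ID, which asks what accompanied choline among formerly iron-deficient females, was tested in the fit of all 16 libraries. There 569 of 14975 genes (3.8%) had an adjusted p under 0.05, and they included Dsp (2.95, SE 0.20, adjusted p = 1.97e-07), Ift140 (0.89, SE 0.06, adjusted p = 1.37e-07), Ephx2 (3.82, SE 0.32, adjusted p = 3.99e-06), Pdyn (1.63, SE 0.15, adjusted p = 1.64e-05), Ccdc82 (-0.77, SE 0.08, adjusted p = 5.2e-05) and Sez6, a synaptic protein gene (-0.40, SE 0.04, adjusted p = 6.77e-05). Ndrg1 (0.27, SE 0.06, adjusted p = 0.0188) and the iron-sulfur cluster gene Nubp1 (0.35, SE 0.07, adjusted p = 0.015) passed as well. Tfrc, Tf, Bdnf and Ptgs2 did not pass: Tfrc differed by 0.18 (SE 0.06, adjusted p = 0.126), Tf by 0.18 (SE 0.08, adjusted p = 0.182), Bdnf by 0.22 (SE 0.09, adjusted p = 0.157) and Ptgs2 by 0.07 (SE 0.09, adjusted p = 0.675). The count ranged from 213 without ID replicate 2 to 596 without IDch replicate 4, and was 259 without IDch replicate 1 and 276, 363 and 285 without ID replicates 1, 3 and 4.

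The difference between IDch and ISch, which asks what accompanied early iron deficiency among choline-supplemented females, passed for 5 of 14975 genes (0.0334%). Of these, 2 had gene symbols: Lrrc8c, a subunit of volume-regulated anion channels (-0.41, SE 0.06, adjusted p = 0.0269), and Ift140 (0.33, SE 0.05, adjusted p = 0.0393). An unadjusted p under 0.05 was reached by 1714 genes. The count was 64 without IDch replicate 4, 54 without ISch replicate 1 and 2 to 8 without any other library of the 2 groups, and DESeq2 called 130. Pdyn (0.07, SE 0.15) and Dsp (-0.06, SE 0.16) differed between IDch and ISch by less than 1 standard error. Ephx2 differed by 0.44 (SE 0.26, adjusted p = 0.53), Chchd4 by -0.77 (SE 0.16, adjusted p = 0.1) and Crabp1 by -1.50 (SE 0.28, adjusted p = 0.0726).

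The comparisons of ID and of ISch with IS share the IS libraries with that of IDch, so their values are only set side by side. Tfrc differed from IS by 0.17 in ID and 0.19 in ISch, Tf by 0.14 and 0.24, Bdnf by 0.26 and 0.65, Tnc by 0.11 and 0.24 and Fbln2 by -0.12 and -0.69. In the same fit of 16 libraries 242 genes passed for IDch against IS.

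In the males the same comparison had few calls, 18 of 13693 genes (0.131%), in libraries with fewer counts. The difference between the female and the male change, tested as an interaction over 16 libraries, passed for 55 of 15177 genes (0.362%). Dsp had a log2 fold change of 0.11 in males (SE 0.27) and a female minus male difference of 2.72 (SE 0.37, adjusted p = 0.00283). Rpl30 (-0.39 in males, difference 3.39, adjusted p = 1.06e-06), Bphl (-0.11, difference 1.2, adjusted p = 0.00988), Chchd4 (0.07, difference -1.24, adjusted p = 0.000405) and Fbln2 (0.37, difference -1.22, adjusted p = 0.00988) also differed. For Bdnf the male log2 fold change was -0.21 (SE 0.10) and the difference 0.70 (SE 0.13, adjusted p = 0.0186), and for Id3 they were -0.28 and 0.82 (adjusted p = 0.0331).

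Other genes called in females did not differ between the sexes past the threshold. Pdyn had a male log2 fold change of 0.14 (SE 0.23) and a difference of 1.42 (SE 0.31, adjusted p = 0.0522), Ephx2 a difference of 3.26 (SE 0.75, adjusted p = 0.0668), Tfrc 0.39 (SE 0.11, adjusted p = 0.107) and Tf 0.37 (SE 0.10, adjusted p = 0.101). Crabp1 (0.98 in males, difference -2.78, adjusted p = 0.00988), Giot1, a zinc finger gene (-0.65, difference 1.51, adjusted p = 0.00988), and Fntb, the farnesyltransferase beta subunit (-0.60, difference 1.30, adjusted p = 0.00399), had male values of the opposite sign, none of which passed in males alone. Giot1 was called in females at 0.85 (adjusted p = 0.0221) and Fntb at 0.70 (adjusted p = 0.0334), and both calls were lost without IDch replicate 1 or any IS replicate, Fntb's also without IDch replicate 2, at up to 0.0842 and 0.112. Capns1 appeared among the differences (7.70) with 31.6 to 53.1 normalised read counts in female IDch and 21.8 to 53.9 in female IS, but with none in any male IDch library and 9.46 to 12 in male IS, and it overlaps Cox7a1. No count in the shallowest male IDch library allows up to 0.853 CPM, so the size of the Capns1 difference is not measured. The count of 55 was 99 without female IDch replicate 4, 32 and 35 without female IS replicates 1 and 4, 26 and 29 without male IDch replicates 1 and 4, and 36 without male IS replicate 4.

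**Figure D5:**
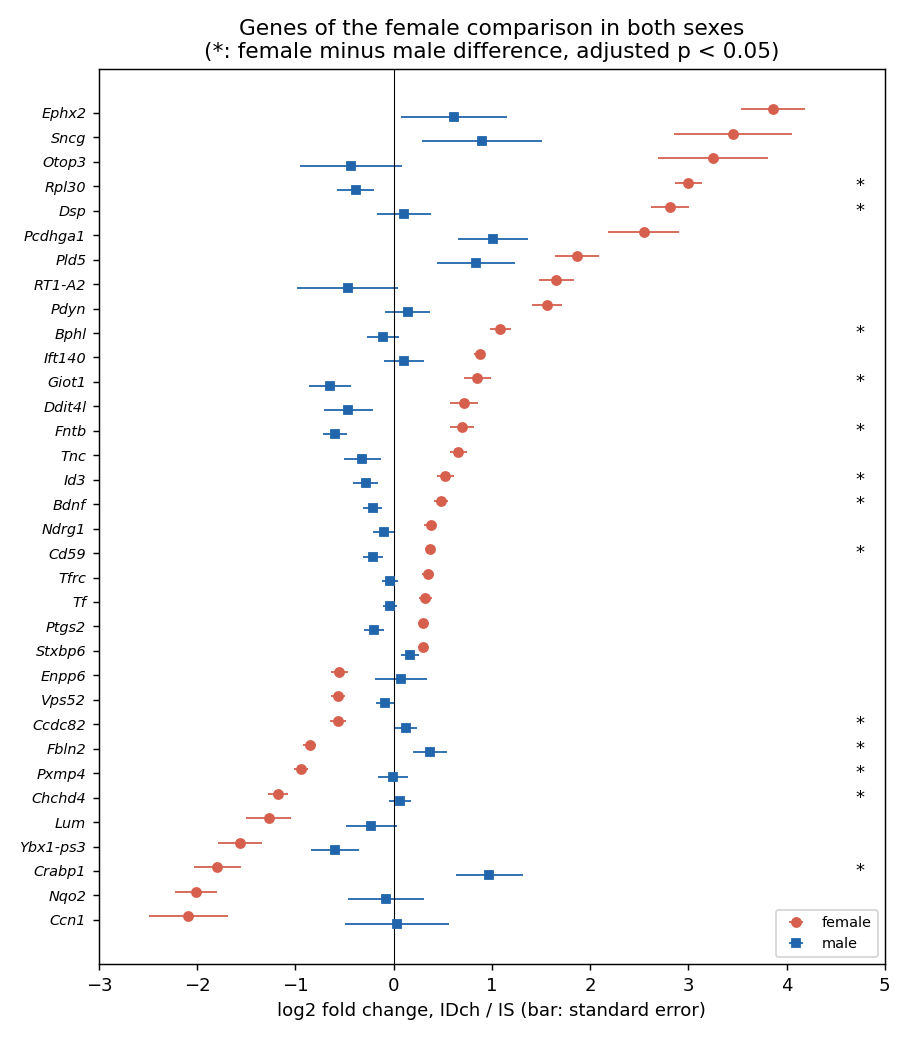
Log2 fold changes between IDch and IS with standard errors, in females (circles) and males (squares), for the named genes called in females that were also tested in males. Stars mark the genes whose female minus male difference had an adjusted p under 0.05, such as Dsp, at 2.81 in females and 0.11 in males.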

How the data were processed

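RNA-seq of 32 rat hippocampi was used, 16 of them female, as 2 tables (1 per sex) of raw read counts that the authors deposited per gene without normalization. The submitters' processing notes name FastQC, Trimmomatic, HISAT2, featureCounts (Subread) and the Rnor_6.0 build, and how strand and multiply mapped reads were treated is not given in the sources used here. Groups came from sample titles, and replicates are separate rats according to the series' design text.

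Of 32883 genes in the tables, those kept by edgeR's filterByExpr were tested by edgeR 4.0.16 (R 4.3.3) with TMM factors and its quasi-likelihood F test, Benjamini-Hochberg adjusted over all genes tested. The fit for IDch against IS held the 8 female IDch and IS libraries, the interaction 16 libraries of both sexes and the other diet comparisons all 16 female libraries. Normalised read counts are counts scaled by TMM library sizes to the mean size of the libraries in the fit. Results were recomputed with DESeq2 1.42.0, with the exact and the likelihood ratio test of edgeR, with other size factors and filters, with a replicate block and without each library in turn. Scripts were tested on simulated data.

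Genes named are the 8 higher and 8 lower with the largest fold changes (mean of at least 50 normalised read counts) and the 8 of each direction with the smallest p among genes with a symbol and an adjusted p under 0.05, up to 4 members per list, genes named in the study, and the leading genes of the other comparisons. Some other list members are given as counterparts and were chosen after their values were seen, as were LOC100361898, Defb17 and the neighbouring genes. The members and lists were chosen with earlier results of these data known. Floors cover counting error only. Standard errors come from the quasi-likelihood test, which takes in the spread between libraries of a group. Of the symbols, 2637 occur more than once. RefSeq (GRCr8) gave promoter windows and the order of neighbours only, and placed 12863 of the 14662 genes tested by symbol. Some genes that the rule would name are not reported here.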

Additional observations from a re-analysis of the deposited data

Results flagged for a closer look

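In groups of 4, 13 of 202 sets of values (6.44%) had a lowest or highest library far from the other 3, where chance flags about 1 in 20. In IDch it was always replicate 4, which had 886 normalised read counts of Rpl30 (1234 to 1297 in the others), 2720 of Ndrg1 (3099 to 3167), 1040 of Id3 (799 to 838), 638 of Gamt (497 to 518), 4220 of Rgs14 (3296 to 3445), 2280 of Grin2a (4093 to 4387), 1210 of Tnks (1798 to 1848) and 31.6 of Capns1 (50.2 to 53.1). The same library had 705 CPM of CA2 and CA3 markers and 317 CPM of blood markers. In IS, replicate 1 had 75 normalised read counts of Crabp1 (119 to 127), replicate 4 had 524 of Ccdc82 (649 to 670), and replicate 3 had 5700 of Prkcb (6792 to 6950).

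The change between IDch and IS differed between females and males by an interaction test at adjusted p under 0.05 in 15 named genes. On the log2 scale the female minus male difference was 3.39 for Rpl30, 2.72 for Dsp, -0.93 for Pxmp4, -1.22 for Fbln2, -1.24 for Chchd4, 1.2 for Bphl, 0.58 for Cd59, -2.78 for Crabp1, -0.69 for Ccdc82, 0.7 for Bdnf, 1.51 for Giot1, 0.82 for Id3, 1.3 for Fntb, 0.86 for Blvra and 7.7 for Capns1. The value for Capns1 rests on male IDch libraries without a count, so its size is not measured. Sex, sequencing batch and depth cannot be told apart in these differences.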

How the results depend on the processing

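The 133 genes at adjusted p under 0.05 became 333 with edgeR's likelihood ratio test, 316 with its exact test, 387 with DESeq2 and 242 with the 4 female groups in one fit, and ranged from 28 to 319 when 1 library was left out. Other size factors and filters gave 128 to 145. The criterion count ranged from 1108 to 1528 when 1 library was left out, and without the fold limit it was 1886. The female minus male count of 55 became 268 with DESeq2 and 26 to 99 without 1 library, that of IDch against ID 950 and 213 to 596 in place of 569, and that of IDch against ISch 130 and 2 to 64 in place of 5. The causes were not tested.

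Replicate numbers did not pair the libraries (correlations of same-numbered deviations of 0.011, 0.023, 0.004 and -0.122). With the replicate block the main count was 30 (28 of them among the 133), the female minus male count 14, IDch against ID 384 and IDch against ISch 3.

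Near-zero values changed sign: App was 0.0023 with library size alone, and Ireb2 was -0.0012 with DESeq2, -0.000825 with RLE factors, -0.0024 with a filter of 1 CPM in 4 samples and -0.000759 with the replicate block. Without 1 library App ranged from -0.036 to 0.0028, Bmp3 from -0.12 to 0.16, Ireb2 from -0.05 to 0.0502 and Capns1 from -0.073 to 0.29. Depth limits the males most, where 0 counts allow up to 0.853 CPM.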
